A study of Mus musculus with 4 samples.

Results

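The replication-dependent histone genes were taken as all genes of the mouse annotation GENCODE M1, on the genome build mm9, whose symbol starts with Hist followed by a digit. This name rule found 70 of 37310 genes, of which 6 encode the linker histone H1, 20 H2A, 19 H2B, 12 H3 and 13 H4. Chromosome 13 holds 56 of them (the Hist1 cluster), chromosome 3 holds 10 (Hist2), chromosome 11 holds 3 (Hist3) and chromosome 6 holds 1 (Hist4). Of the 70, 67 were annotated as protein-coding, and the 3 pseudogenes were Hist3h2bb-ps, Hist1h2aj and Hist2h3c2.

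The regions come from bioChIP-seq in mouse embryonic stem cells (ESCs), in which the bacterial ligase BirA biotinylates a tagged protein in the living cell and streptavidin then pulls it down with its DNA. The tagged protein, FB Wapal, is the cohesin release factor Wapal with Flag and biotin-acceptor tags, expressed below the endogenous level in ESCs that also carry BirA. The compared libraries were 2 FB Wapal clones, 1 line of ESCs with BirA alone as the negative control, and 1 input of sheared DNA from ESCs labelled as made to express the biotinylatable Wapal. One list of 8497 regions was deposited for both FB Wapal clones together and one list of 266 regions for BirA, so no value below has a spread between replicates and no test between the groups was possible. Each region carries a score from the peak caller MACS, in which the p-value against input is put on a −log10 scale and multiplied by 10. Scores were not normalised between the lists and are read only within a list. Read counts are not part of the lists, and how precise a single score is remains unknown. The control is a single line, and the list for FB Wapal mixes 2 individual clones, so what differs between clones could not be seen.

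Replication-dependent histone genes supply the histones that package new DNA, and they are transcribed chiefly in S phase. They are short, mostly intronless and clustered, and H2A and H2B genes often lie head to head around a shared promoter. Their mRNAs end in a conserved stem-loop in place of a poly(A) tail. H2A, H2B, H3 and H4 form the nucleosome core and H1 binds the linker DNA between nucleosomes. Some genes with such names are used in the testis, among them Hist1h1t, Hist1h2ba and Hist1h2aa.

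The stem-loop was searched on the strand of the gene in the 200 bases after the last coding base. The sequence searched, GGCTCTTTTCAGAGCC, was the commonest 16-base run there whose first 6 and last 6 bases pair. It was taken from these same histone genes, and the limit of 4 mismatches was set after their matches were seen. A high share in them was therefore partly set in advance and is not an independent check of the name. At most 4 mismatches were found in 64 of the 67 protein-coding genes (95.5%), compared with 283 of 22313 other protein-coding genes (1.27%). The sequence was exact in 39 histone genes and in 1 other gene. Hist1h2al, Hist2h2be and Hist2h2bb had no better match than 7 mismatches, and the label of these 3 genes therefore rests on the name. The coding sequence of Hist2h2bb has more than 1 segment, and only the stretch after the last coding base of any transcript was searched. The motif began a median of 34 bases after the last coding base (range, 25 to 62). The stem-loops of genes at the highest-scoring BirA regions, and of Hist4h4, are shown with 5 bases on each side, with the stem-loop in capitals and its mm9 coordinates:
Hist1h4i (chr13:22132835-22132850, minus strand): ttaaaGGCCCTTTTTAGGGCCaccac
Hist1h3c (chr13:23836916-23836931, minus strand): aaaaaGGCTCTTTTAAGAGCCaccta
Hist1h1d (chr13:23647656-23647671, plus strand): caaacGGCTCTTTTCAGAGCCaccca
Hist1h2ae (chr13:23662537-23662552, minus strand): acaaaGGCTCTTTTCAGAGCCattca
Hist1h2bk (chr13:22128169-22128184, plus strand): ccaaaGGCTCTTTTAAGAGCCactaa
Hist4h4 (chr6:136752519-136752534, minus strand): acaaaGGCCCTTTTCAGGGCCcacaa

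No H4 gene had the exact sequence, and all 13 matched within 4 mismatches. Exact matches were found in 5 of 6 H1, 15 of 19 H2A, 12 of 18 H2B and 7 of 11 H3 genes.

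The coding sequences of these genes are close copies of each other, which bears on the regions because the authors kept only reads that aligned to 1 place. Reads were 49 bases long and the alignment allowed 2 mismatches in the seed. Bases 151 to 199 of the open reading frame (ORF) show the likeness within H4. The 49 bases were the same in 9 of the 13 H4 genes, Hist1h4i included. The other 4 follow Hist1h4i, with the bases that differ from it in capitals:
Hist1h4i (chr13:22132994-22133042, minus strand): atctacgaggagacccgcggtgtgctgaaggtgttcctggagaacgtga
Hist1h4f (chr13:23643314-23643362, minus strand): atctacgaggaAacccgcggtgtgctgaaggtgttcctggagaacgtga
Hist1h4d (chr13:23673621-23673669, plus strand): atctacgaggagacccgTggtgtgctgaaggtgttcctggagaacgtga
Hist2h4 (chr3:96067029-96067077, minus strand): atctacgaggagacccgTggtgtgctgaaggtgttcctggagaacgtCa
Hist4h4 (chr6:136752702-136752750, minus strand): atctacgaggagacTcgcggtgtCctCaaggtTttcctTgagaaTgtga

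Hist1h4f and Hist1h4d differed from Hist1h4i at 1 base, Hist2h4 at 2 and Hist4h4 at 6. The ORF of Hist4h4 is also 1 of the 2 that lay whole inside a BirA region.

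**Figure D1:**
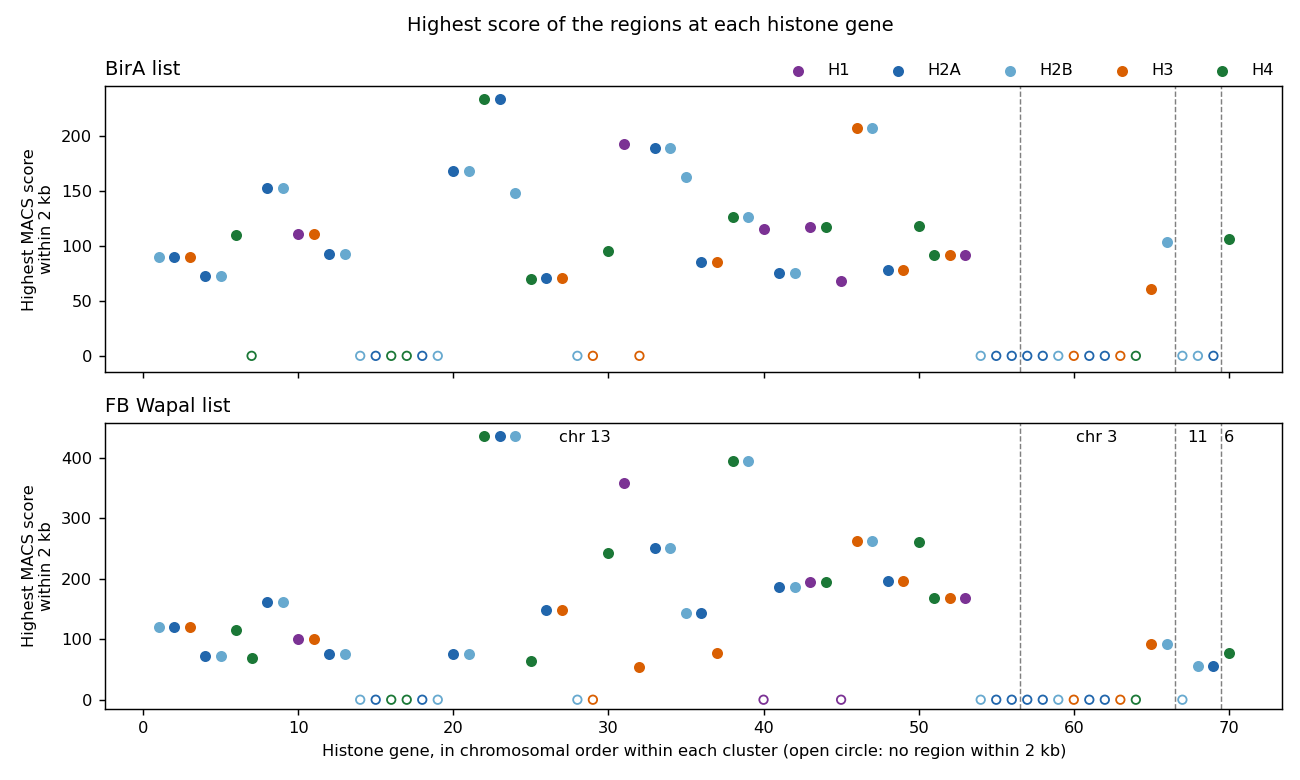
Highest MACS score of the BirA regions (top) and FB Wapal regions (bottom) within 2 kb of each of the 70 histone genes, in chromosomal order and coloured by histone type, with an open circle at 0 where a list holds no region. Dashed lines separate chromosomes 13, 3, 11 and 6, and the highest point of both lists stands at Hist1h4i and its neighbours.

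BirA regions lay within 2 kb of 46 of the 70 histone genes (65.7%), compared with 0.657% of all 37310 genes and 0.826% of the 14414 genes under 2 kb long. FB Wapal regions lay within 2 kb of 48 histone genes (68.6%), compared with 10.4% of all genes and 2.76% of the short ones. Both lists had a region at 44 histone genes (62.9%, against 0.504% of all genes), and at each of the 44 a region of one list overlapped a region of the other. Hist1h1e and Hist1h1c had a BirA region alone, while Hist3h2bb-ps, Hist3h2a, Hist1h4k and Hist1h3e had an FB Wapal region alone. The remaining 20 genes had neither. The shared genes were thus 44 of 46 in the BirA list and 44 of 48 in the FB Wapal list.

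By histone type, a BirA region was found at 6 of 6 H1, 11 of 20 H2A, 12 of 19 H2B, 8 of 12 H3 and 9 of 13 H4 genes. FB Wapal regions were found at 4 H1, 12 H2A, 13 H2B, 9 H3 and 10 H4 genes. The median of the highest BirA score per gene was 137 for H2B, 113 for H1, 110 for H4, 90.1 for H2A and 87.8 for H3. In the FB Wapal list the medians were 182 for H1, 182 for H4, 146 for H2A, 144 for H2B and 120 for H3. Several H1 values came from regions over genes of other types. At Hist1h1b the highest BirA and FB Wapal regions (111.44 and 101.26) lay over Hist1h3i. Those of Hist1h1t (117.72 and 195.12) lay over Hist1h4c, and those of Hist1h1a (91.52 and 168.97) over Hist1h4a and Hist1h3a. Values of H2A and H2B genes were shared in the same way. The BirA value of Hist1h2ag (234.08) and the FB Wapal value of Hist1h2ag and Hist1h2bj (436.58) lay over Hist1h4i. For the H2B genes Hist1h2bb and Hist1h2be, the BirA values (207.7 and 126.69) lay over Hist1h3c and Hist1h4d. Ranges of the types overlapped in each list, and neighbouring genes often shared 1 region, so genes of different types did not give independent values. In all, 40 of the 53 BirA regions at histone genes lay within 2 kb of more than 1 of them.

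**Figure D2:**
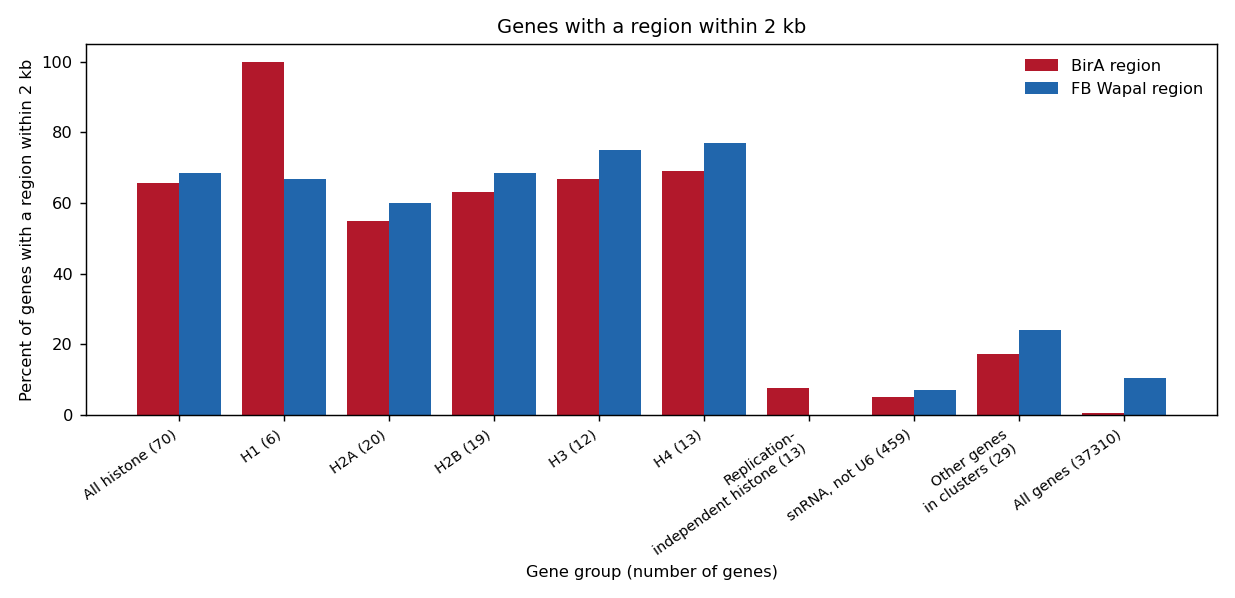
Percent of genes with a BirA region (red) or an FB Wapal region (blue) within 2 kb, for the histone genes, each histone type and the gene groups compared, with the number of genes in parentheses. Each histone type stands above the 0.657% (BirA) and 10.4% (FB Wapal) of all genes.

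By cluster, Hist1 had a BirA region at 43 of 56 genes (76.8%) and an FB Wapal region at 43. Hist2 had each at 2 of 10 genes, Hist2h3b and Hist2h2bb. Hist2h3b, an H3 gene, had a BirA score of 61.26 and an FB Wapal score of 91.61. Hist2h2bb, an H2B gene with a long annotated model, reached 104.02 in the BirA list, at a region that overlapped an FB Wapal region of 52.99. Its highest FB Wapal score, 91.61, was that of the region it shares with Hist2h3b. The other 8 genes of Hist2 (Hist2h2ab, Hist2h2ac, Hist2h2be, Hist2h3c2, Hist2h2aa2, Hist2h2aa1, Hist2h3c1 and Hist2h4) had neither, and the nearest BirA region lay 5.77 kb from Hist2h4 and 48.8 kb from Hist2h2ab. In Hist3, none of the 3 genes had a BirA region, and 1 FB Wapal region with a score of 55.31 lay at Hist3h2bb-ps and Hist3h2a. Hist3h2ba had neither, with the nearest FB Wapal region 4.71 kb away. Hist4h4, the only gene of its cluster, had a score of 106.15 in the BirA list and 77.75 in the FB Wapal list.

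On chromosome 13 the genes form 2 blocks and 1 gene that lies apart, Hist1h2al. The first block (chr13:21807632-22135545) held 24 genes, 17 with a BirA region, and the second (chr13:23622919-24026720) held 31 genes, 26 with a BirA region. Histone genes had all 18 BirA regions of the first block and all 32 of the second within 2 kb. They had 19 of the 23 and 22 of the 26 FB Wapal regions. The FB Wapal regions of the blocks that lay away from histone genes reached scores of 136.08 at the lincRNA Gm11292 and 170.82 at Hfe, a regulator of iron uptake. Outside the histone genes, therefore, the blocks held FB Wapal regions but no BirA region.

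Histone genes made up a large part of the BirA list and a small part of the FB Wapal list. The 53 BirA regions had a median score of 87.0 (range, 50.52 to 234.08), compared with 63.9 (range, 50.16 to 408.37) for the other 213 regions. Of the 66 BirA regions of highest score, 22 were at histone genes, the first of them at rank 9. The median width was 452 bp at histone genes and 471 bp elsewhere, and the median GC content was 44.1% and 44.2%. The 46 FB Wapal regions at histone genes were 0.541% of that list. Their median score was 100 (range, 52.99 to 436.58), against 81.8 elsewhere, and their median width was 1030 bp against 813 bp.

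The highest-scoring BirA region at a histone gene lay at Hist1h4i (chr13:22132167-22132937, score 234.08), an H4 gene on the minus strand. Its highest FB Wapal region (chr13:22131810-22133733) had a score of 436.58, rank 18 of the list, and held that BirA region and a further one with a score of 116.24 on the upstream side. Next in the BirA list came Hist1h3c, an H3 gene, with 207.7 downstream of the ORF and 87.04 upstream. Hist1h1d, a linker histone gene, followed with 193.08 downstream and 64.81 upstream. The gap between Hist1h2ae and Hist1h2bg had a score of 189.54, and the region past the end of Hist1h2bk had 168.1. At each of these 5 the FB Wapal list had a region as well.

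In the FB Wapal list the order below Hist1h4i was Hist1h4d with 395.17, Hist1h1d with 358.29, the region over Hist1h3c and Hist1h2bb with 261.92 and Hist1h4b with 260.63. The region over Hist1h3c and Hist1h2bb was the widest at a histone gene (2896 bp) and held 3 BirA regions. At Hist1h4d the BirA list had 113.14 upstream and 126.69 downstream, and at Hist1h4b it had 112.52 and 118.69. Hist1h2bk stood differently in the lists, at rank 21 of 266 in the BirA list and at rank 4901 of 8497, with a score of 75.07, in the FB Wapal list.

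**Figure D3:**
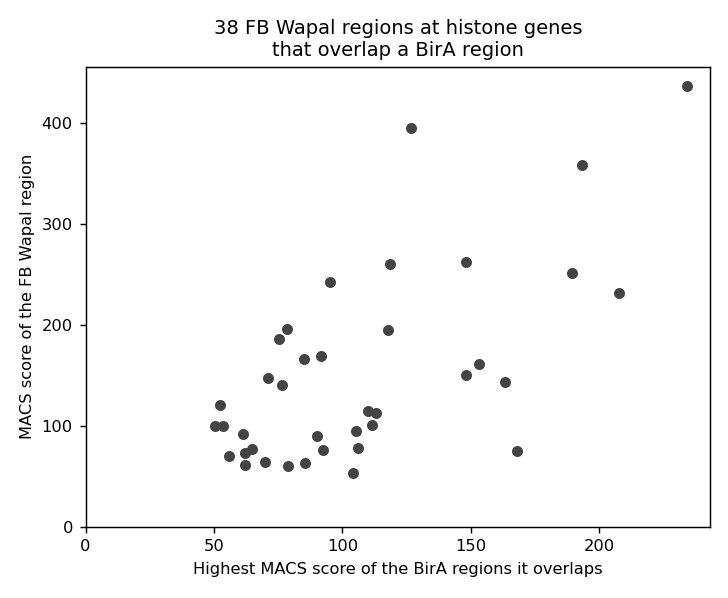
MACS score of each of the 38 FB Wapal regions at histone genes that overlap a BirA region (vertical axis) against the highest score of the BirA regions it overlaps (horizontal axis). Hist1h4i is the highest point on both axes, and Spearman's rho over the 38 regions is 0.54.

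Across the 38 FB Wapal regions that overlapped a BirA region, Spearman's rho between the scores of the 2 lists was 0.54. This is a description of 38 regions that share an input library, a genome and often a gene, and has no p.

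Most BirA regions were centred beside a coding sequence rather than inside it. Taking the nearest ORF that lies in 1 segment, 36 of the 53 were centred downstream, 15 upstream and 2 inside. The 36 include a region in the body of Hist2h2bb (chr3:96077485-96078267), whose own ORF has more than 1 segment and was left out, and which lay 4852 bp from the ORF of Hist2h3b. Downstream regions had a median score of 85.5 and a median width of 536 bp, and upstream regions 90.1 and 385 bp. Among the 66 histone genes whose ORF lies in 1 segment, 37 had a BirA region within 300 bp past the ORF and 22 had one within 300 bp before it. Both sides were marked at 20 genes, the downstream side alone at 17 and the upstream side alone at 2. Of the 44 stem-loops in genes that had a BirA region within 2 kb, 36 lay inside a BirA region. From 25 to 175 bp past the ORF, 81.8% of these genes were inside a BirA region at any position. The stem-loops lie in that stretch, so their count restates its coverage and is not particular to them.

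**Figure D4:**
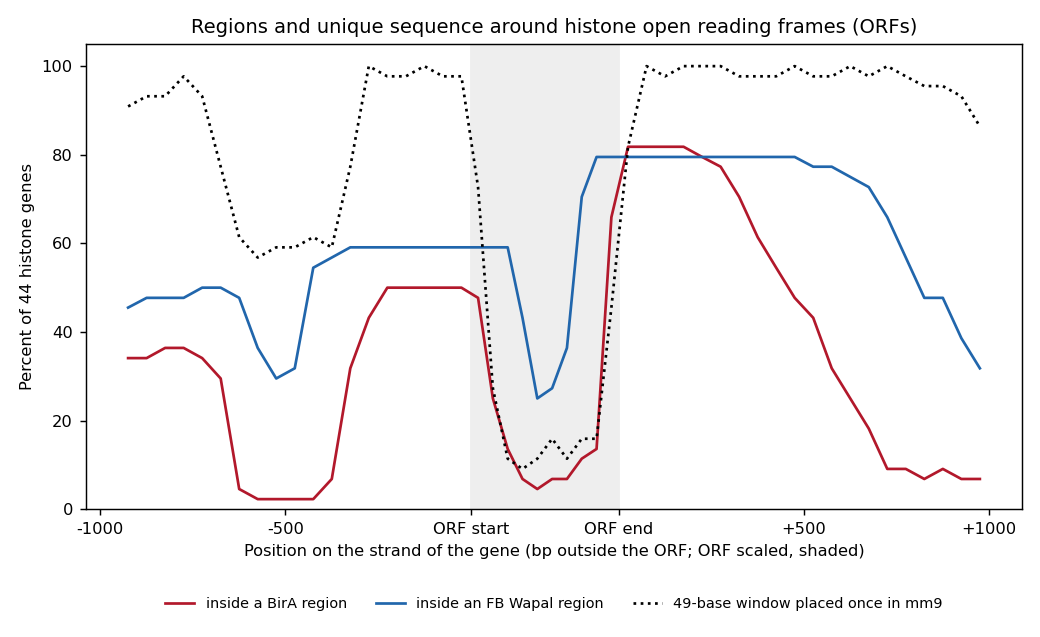
Percent of the 44 histone genes with a 1-segment ORF and a BirA region within 2 kb that are inside a BirA region (red) or an FB Wapal region (blue) at each position along the gene, and percent whose 49-base window has no second place in mm9 (dotted), with the ORF scaled and shaded. The BirA line is 81.8% just past the ORF, 50.0% just before it and 4.55% near its middle.

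Along these 44 genes, 81.8% were inside a BirA region from 25 to 175 bp past the ORF and 50.0% from 25 to 225 bp before it, whereas 4.55% were at 45% of the ORF length. For FB Wapal regions the values were 79.5%, 59.1% and 25.0%. BirA coverage was also low farther upstream, at 2.27% from 575 to 425 bp before the ORF. Beyond that dip it was higher again, at 36.4% from 825 to 775 bp before the ORF. FB Wapal coverage had its highest value, 79.5%, from 85% of the ORF length to 475 bp past the ORF. It was 31.8% at 975 bp past the ORF. A BirA region covered a median of 12.6% of the ORF and an FB Wapal region 56.2%. The difference between the lists was not tested, and their regions also differ in width.

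The share of sequence that a read can be placed in moved with this pattern. A 49-base window was called unique when mm9 held no second place for it with at most 2 mismatches on either strand. Near the middle of the ORF (45%), 11.4% of the 44 genes had a unique window, compared with 100% at 75 bp past the ORF and 97.7% at 25 bp before it. Of the windows centred inside BirA regions 94.7% were unique, compared with 58.1% of those centred outside them, both counted from 500 bp before to 500 bp after the ORFs of these genes. In 35 of the 66 ORFs no window was unique. The median unique share of the ORF was 80.5% for H1, 8.43% for H4 and 0% for H2A, H2B and H3. Base composition moved as well, with a median GC content of 65.7% in the ORFs against 42.3% before and 40.5% after them. The part of either in the position of the regions was not tested.

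**Figure D5:**
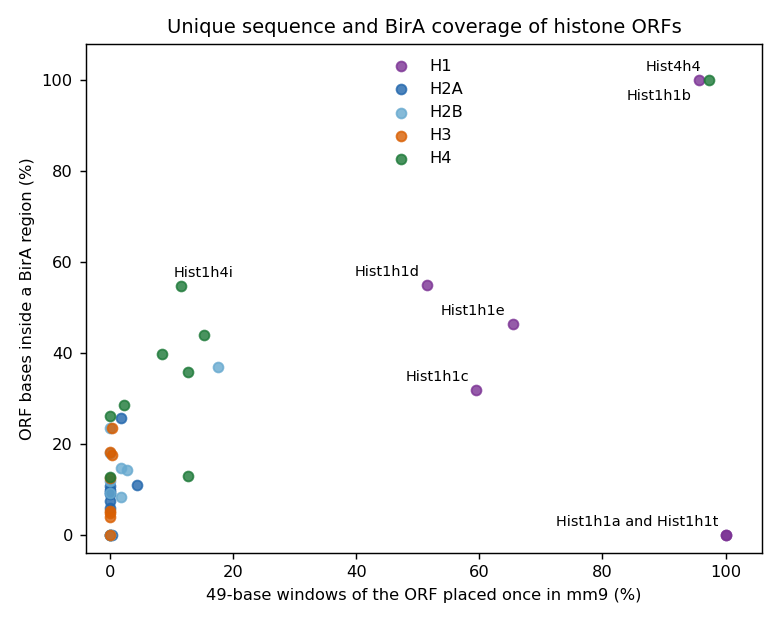
Percent of the ORF inside a BirA region (vertical axis) against percent of its 49-base windows with a single place in mm9 (horizontal axis) for the 44 histone genes with a 1-segment ORF and a BirA region within 2 kb, coloured by histone type. Hist1h1b and Hist4h4 are at the upper right and Hist1h1a and Hist1h1t at the lower right.

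Among the genes with a BirA region within 2 kb, the ORFs with much unique sequence were few and are named first. Hist1h1b (95.7% unique) and Hist4h4 (97.3%) lay whole inside a BirA region, 1569 bp wide with a score of 78.98 and 913 bp wide with a score of 106.15. Hist1h1d was 51.5% unique and 54.9% covered, Hist1h1e 65.4% unique and 46.3% covered, and Hist1h1c 59.5% unique and 31.8% covered. In the other 34 genes with a BirA region within 300 bp of the ORF, at most 17.6% of the ORF was unique and a median of 12.6% was covered (range, 0 to 54.7%). Hist1h1a and Hist1h1t had ORFs that were 100% unique and no BirA region nearer than 1721 bp and 1019 bp. The region within 2 kb of Hist1h1a overlapped Hist1h4a and Hist1h3a, and those within 2 kb of Hist1h1t were nearest to Hist1h4c. Other ORFs over 50% unique were in genes with no BirA region within 2 kb, so no base of them was covered. They were Hist1h2aa (78.2%), Hist2h4 (77.8%), Hist2h2be (72.7%), Hist3h2a (64.9%), Hist2h2ab (52.3%) and Hist1h2ba (52.0%). Much unique sequence thus occurred both with and without a BirA region.

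Both genes with a BirA region alone were H1 genes. Hist1h1e had a BirA region with a score of 115.27, and the nearest FB Wapal region was 23.1 kb from the gene. Hist1h1c had a score of 68.17 in the BirA list, with the nearest FB Wapal region 3.86 kb away. The other BirA regions at histone genes that overlapped no FB Wapal region were at Hist1h2bc (53.03), Hist1h2bm (72.87) and Hist1h2bp (85.43). In total 48 of the 53 (90.6%) overlapped an FB Wapal region, compared with 142 of the 213 BirA regions elsewhere (66.7%).

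In the 14 head-to-head pairs, where 2 genes can share a promoter, both lists had a region over only 4 of the gaps. Gaps between the gene models were 167 to 692 bp. A BirA region lay over the gap of 4 pairs, with scores of 90.1 at Hist1h2bl/Hist1h2ai, 153.06 at Hist1h2ak/Hist1h2bn, 189.54 at Hist1h2ae/Hist1h2bg and 75.45 at Hist1h2ac/Hist1h2bc. FB Wapal regions lay over the same 4 gaps, with 90.08, 160.86, 250.86 and 186.17, and over those of Hist3h2bb-ps/Hist3h2a and Hist1h2ag/Hist1h2bj with 55.31 each. All windows were unique in the gaps of 12 pairs and none in those of the other 2.

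To show what such gaps hold, the sequences of 2 gaps with a BirA region, of Hist1h2bf/Hist1h2ad, whose gap is unique and holds no region of either list, and of the 2 gaps with no unique window are given, followed by the 200 bases before Hist1h4d, the second gene of the FB Wapal order. They are from mm9, in plus-strand orientation and outside the gene models, with capitals for the TATA box (TATAAA), the CCAAT box (CCAAT) and the octamer (ATTTGCAT), each searched on both strands:
Hist1h2ae/Hist1h2bg (chr13:23663090-23663264, plus strand): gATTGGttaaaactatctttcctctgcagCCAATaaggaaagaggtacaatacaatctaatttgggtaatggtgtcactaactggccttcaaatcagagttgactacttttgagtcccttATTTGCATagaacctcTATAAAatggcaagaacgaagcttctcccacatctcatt
Hist1h2ak/Hist1h2bn (chr13:21845777-21845991, plus strand): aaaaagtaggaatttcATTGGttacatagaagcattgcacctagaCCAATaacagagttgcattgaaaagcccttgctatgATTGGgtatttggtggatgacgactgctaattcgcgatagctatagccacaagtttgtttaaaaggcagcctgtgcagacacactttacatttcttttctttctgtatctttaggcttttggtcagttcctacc
Hist1h2bf/Hist1h2ad (chr13:23666066-23666249, plus strand): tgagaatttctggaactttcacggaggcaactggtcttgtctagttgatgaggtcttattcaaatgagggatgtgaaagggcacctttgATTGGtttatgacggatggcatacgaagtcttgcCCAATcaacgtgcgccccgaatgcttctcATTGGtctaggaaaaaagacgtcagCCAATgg
Hist1h2bq/Hist1h2ao (chr13:21902069-21902235, plus strand): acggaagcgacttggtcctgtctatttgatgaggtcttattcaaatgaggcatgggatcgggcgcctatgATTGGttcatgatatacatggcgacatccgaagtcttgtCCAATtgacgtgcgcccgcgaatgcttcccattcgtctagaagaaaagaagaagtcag
Hist1h2ap/Hist1h2br (chr13:21925445-21925611, plus strand): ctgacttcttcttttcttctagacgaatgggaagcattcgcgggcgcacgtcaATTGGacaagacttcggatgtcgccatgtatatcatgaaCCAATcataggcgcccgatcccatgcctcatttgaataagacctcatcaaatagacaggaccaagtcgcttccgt
Hist1h4d (chr13:23673267-23673466, plus strand): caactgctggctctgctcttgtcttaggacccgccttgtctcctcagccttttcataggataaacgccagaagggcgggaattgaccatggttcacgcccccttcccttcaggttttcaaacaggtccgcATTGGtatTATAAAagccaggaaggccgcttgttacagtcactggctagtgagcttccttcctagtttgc

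The motifs were counted from 250 bases before to 50 bases after the start of each gene, which reaches past the printed gaps into the gene models. TATAAA was thus counted at Hist1h2ak, Hist1h2bn, Hist1h2bf and Hist1h2ad, although their printed gaps hold none. TATAAA, which positions the general transcription machinery, was in 38 of the 70 histone promoters (54.3%) and 13.3% of 22313 other protein-coding promoters. CCAAT was in 84.3% and 37.8%, but in only 4 of 13 H4 promoters. ATTTGCAT, the octamer bound by Oct factors, was in 22.9% and 1.66%, with 9 of 19 H2B and 7 of 20 H2A promoters and none of H1, H3 or H4. CCAAT and ATTTGCAT can share letters where their ends meet. Both strands were searched, so 1 match in the gap of a head-to-head pair can count for both of its genes. The gap of Hist1h2ae/Hist1h2bg holds 1 TATAAA and 1 ATTTGCAT, and both genes were counted with each. The shares are therefore not counts of separate matches, and an H2A match can be that of its H2B partner. The shares of promoters with the motif, for genes with and without a BirA region within 2 kb, were 56.5% and 50.0% for TATAAA, 84.8% and 83.3% for CCAAT and 21.7% and 25.0% for ATTTGCAT. These matches are a description and not a sign that a factor is bound.

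Of the 20 genes with neither list, 6 form an inverted copy on chromosome 13. Hist1h2bq, Hist1h2ao and Hist1h4m face Hist1h4n, Hist1h2ap and Hist1h2br, and no window of their ORFs was unique. The 167-base gaps of the copies, printed above, had 0 differences once one was reversed. Reads from such windows have no single place in mm9, so the lack of a region over these 6 ORFs is not a measurement of the cells. Both flanks of 300 bp were over 50% unique in 8 others, Hist3h2ba, Hist1h2bh, Hist1h2ba, Hist1h2aa, Hist2h2ab, Hist2h2ac, Hist2h2be and Hist2h4. The rest were Hist1h3f, Hist1h2al, Hist2h2aa2, Hist2h2aa1 and Hist2h3c1, each with a flank at most 50% unique, and the pseudogene Hist2h3c2. Hist1h2ba and Hist1h2aa, the testis pair, lay 172 kb from the nearest BirA region. Among the 44 genes with a BirA region and a 1-segment ORF, 43 had both flanks over 50% unique, compared with 9 of 22 without one.

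The authors subtracted BirA regions before their analyses, by a rule that the sources used here do not spell out. The rule used here, removal of each FB Wapal region that shares at least 1 bp with a BirA region, is not a repeat of their subtraction and does not leave the same number of sites. It took 38 of the 46 at histone genes (82.6%), compared with 136 of the 8451 elsewhere (1.61%). The 8 that remained lay within 2 kb of 14 histone genes (20.0%, against 10.0% of all genes and 2.14% of the genes under 2 kb long). Their scores ran from 53.44 to 78.45 with a median of 60.3, and the 38 had a median of 118. The lowest were at Hist1h3e (53.44), the gap of Hist1h2ag and Hist1h2bj (55.31) and Hist3h2bb-ps with Hist3h2a (55.31). Then came Hist1h2ai with Hist1h3h (59.24), Hist1h2ah (61.34), Hist1h4k (68.83), an intron of Hist1h2be (77.05) and Hist2h2bb (78.45). Removal of regions within 1 kb of a BirA region, instead of those that overlap one, left 6 genes.

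The core motif of CTCF, the insulator protein found at many cohesin sites, was searched over its 12 bases with at most 1 mismatch on both strands. It was present in 2 of the 38 FB Wapal regions at histone genes that overlapped a BirA region (5.26%) and in 2 of the 8 that did not. Elsewhere in the FB Wapal list it was in 70 of the 136 regions that overlapped a BirA region (51.5%) and in 74.5% of those that did not. The median widths of the regions that overlapped a BirA region were 1010 bp at histone genes and 1100 bp elsewhere. In the BirA list the motif was in 1 of 53 regions at histone genes (1.89%) and 66 of 213 others (31.0%). No test was made of these shares.

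Histone genes outside the named clusters were read the same way. Over all 37310 genes, 0.657% had a BirA region within 2 kb and 10.4% an FB Wapal region. Of 13 replication-independent histone genes, which in most cases have introns and mRNAs with poly(A) tails, 1 had a BirA region (7.69%) and none an FB Wapal region. That gene was H2afz, which encodes the variant H2A.Z, with a score of 50.48, near the lowest in the list. Of 10 genes for histone mRNA production, none had a BirA region and 2 (20.0%) had FB Wapal regions. The 2 were Eri1, a nuclease of the stem-loop, with 185.36 and Lsm11, a subunit of the U7 particle that cuts histone pre-mRNA, with 121.44. No difference from all genes was tested in groups of this size.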

How the data were processed

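Reads of 49 bases were aligned by the authors with Bowtie to mm9, those with a single alignment were retained, and regions were called against input by MACS 1.4.2 (p of 1e-05). The deposited score of each region is its p-value on a −log10 scale, multiplied by 10, with no normalisation between lists. The methods do not state how the regions of both clones were joined. Depth per sample was not used here, since the lists hold no counts.

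Genes and regions were matched when their edges lay within 2 kb, and overlap meant at least 1 bp. Unique windows were found by matching each 49-base window to both strands of mm9, which approximates the aligner, since Bowtie counted mismatches in the seed. In the self-tests 200 of 200 planted copies and 100 of 100 planted pairs were found. Distances, score limits, biotypes and window settings were varied. The named genes were all genes of the small clusters, those at the 5 regions of highest score in each list, and those with regions in one list alone. Any other gene named was chosen with its values known, and the limit of 4 mismatches for the stem-loop was raised from 2 after H4 genes were seen at 3 and 4. Members and lists were chosen with earlier results of these data known. Of 11 genes listed for histone mRNA production, 10 matched a symbol. RefSeq promoters of another build were not used. Python 3.11.15, numpy 2.4.6, pandas 2.3.3, pysam 0.24.0 and numba 0.67.0 were used.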

Additional observations from a re-analysis of the deposited data

How the results depend on the processing

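Of 44 alternative values, 33 stayed within 1.5-fold of the reported one, 9 moved farther and 2 changed sign. A score of at least 100 left 24 histone genes with a BirA region, 19 with both lists, 22 BirA regions and 23 FB Wapal regions. Histone genes with an FB Wapal region that overlaps no BirA region numbered 22 within 5 kb and 6 when regions within 1 kb of a BirA region were removed. The median distance from the TSS to the centre of the nearest BirA region was -13 bp, where a negative value is upstream. It was -23 bp in protein-coding genes alone, 318 bp with a score of at least 100 and 160.25 bp when measured from the middle of the gene body, so this median sets no side of the gene. The median share of unique windows in the gene body was 31.7%, 54.0% with no mismatch allowed and 0.0% in the ORF alone, a setting chosen after seeing the data. The causes of these shifts were not tested, apart from the fewer regions that the score limit keeps. No paired analysis was possible because both FB Wapal clones are in 1 list and BirA is 1 library. For the same reason no replicate could be left out.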

Other observations

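Other genes inside the histone clusters of chromosomes 13 and 3 numbered 29, and 5 of them (17.2%) had a BirA region within 2 kb. At each of these 5 the BirA regions were also within 2 kb of a histone gene, as at Gm17658 beside Hist1h4d (126.69) and Gm11336 beside Hist1h3c (207.7). FB Wapal regions lay at 7 of the 29 (24.1%), and those at Gm11292, Hfe and Slc17a1 (58.86) were away from histone genes.

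Among other gene groups compared, 24 of 459 snRNA genes other than U6 had a BirA region (5.23%) and 32 an FB Wapal region (6.97%). The shares of all genes were 0.657% and 10.4%. How unique the sequence of these groups is was not measured. Of 144 genes taken by name as ribosomal protein genes, 6 had a BirA region (4.17%) and 13 an FB Wapal region (9.03%). That name rule also took some ribosomal protein kinases and genes named as pseudogenes. The highest BirA score among them was 138.95 at Rps19, which encodes a protein of the small ribosomal subunit.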
